A study of Mus musculus with 24 samples.

Results

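The genes described here encode heat shock proteins and DnaJ chaperones, measured by RNA sequencing in murine B-cell acute lymphoblastic leukemia (B-ALL) cells. They were chosen by symbol: the Hspa, Hspb, Hspd, Hspe, Hsph and Hsp90a genes and the Dnaja, Dnajb and Dnajc genes, less 8 pseudogenes and 5 chaperones of the endoplasmic reticulum (ER) lumen. The authors' mean value also had to reach 3.46 on a log2 scale, which is the log2 of a normalised count of 10 plus 1. Of 67 candidates, 49 passed and 18 lay under that level, and the 49 stand among 11470 genes tested. They carry 48 symbols, since Dnajc19 has 2 identifiers. Just above the level lay the second Dnajc19 identifier at 3.627 and Dnajc6, an auxilin that uncoats clathrin vesicles, at 4.432. Just below it lay Hspa1a at 2.324 and Hspa1l at 1.755. Hspb1, the small heat shock protein HSP27, had a mean of 0.226 and is therefore not a member, and 7 candidates were listed at 0 in every library.

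All libraries came from BCR-ABL1-positive murine cells with floxed Foxo1 and Cre-ERT2, a Cre recombinase that 4-hydroxytamoxifen (4-OHT) switches on, with bone marrow given as the tissue. The compound arm held cells given 70 nM AS1842856, described in the series as an inhibitor of FOXO1 and GSK3, and cells given its vehicle DMSO. The deletion arm held cells given 200 nM 4-OHT, to delete Foxo1, and cells given its vehicle ethanol (EtOH). Each of the 4 conditions was sampled at 24 h and at 48 h with 3 libraries, which made 8 groups and 24 libraries. Every group, vehicles included, carried the floxed alleles and Cre-ERT2, and no group in which 4-OHT acted without floxed Foxo1 was used here, so loss of Foxo1 cannot be told apart from other effects of 4-OHT and active Cre. The labels name no second leukemia. They also leave unsaid whether the replicates came from separate cultures, so the p-values given here rest on library-to-library spread that may be technical.

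Chaperones bind unfolded or partly folded proteins. HSP70 proteins hold and release their clients in an ATP-driven cycle that DnaJ (J-domain) proteins start and HSP110 proteins reset, HSP90 takes over many signalling clients, among them kinases such as BCR-ABL, and HSP60 with its lid HSP10 forms a folding chamber in mitochondria. Many of these genes are known targets of the heat shock factor HSF1, which binds heat shock elements, repeats of GAA and its complement TTC. By family, the members comprise 6 HSP70, 3 HSP110, 2 HSP90, 2 HSP60/HSP10, 2 genes named as small heat shock proteins, 3 DNAJA, 7 DNAJB and 24 DNAJC genes. By the place where the protein works, 21 are cytosolic, 10 mitochondrial, 8 of the ER membrane, 4 nuclear, 4 of vesicles or endosomes, and 2 belong to none of these.

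The promoters that carry a heat shock element or a FOXO motif are shown first, since many chaperone genes are HSF1 targets and FOXO1 is the factor that was deleted or inhibited. RefSeq windows (GRCm38.p6) from 250 bases before to 50 after a transcript start were matched for 37 member symbols, in 52 windows. The heat shock element was searched as GAANNTTCNNGAA or its other strand TTCNNGAANNTTC, the FOXO motif as GTAAACA or TGTTTAC, and the E-box as CACGTG, which is its own other strand. None of these motifs contains another. The heat shock element was found in 4 members, or 10.8%, against 0.571% of 8404 tested genes with a window and 0.662% of all 27025 genes of the table. The FOXO motif was found in 2 members, or 5.41%, against 3.05% of the tested genes, and the E-box in 5 members, or 13.5%, against 12.2%. Hspd1 and Hspe1 are counted on the same bases, so the 4 members with a heat shock element hold it in 3 separate stretches. These matches describe letters in a window and not binding. The 4 members with a heat shock element were Hspd1 (HSP60), Hspe1 (HSP10), Hsph1 (HSP105, of the HSP110 family) and Dnajb6, an anti-aggregation J-domain protein, and the 2 with a FOXO motif were Dnajc6 and Dnajb12, an ER membrane J-domain protein. Hspd1 and Hspe1 lie head to head on chromosome 1, and the 107 bases between the first exons of 1 GENCODE M21 transcript of each are printed, with the 18 bases of 2 overlapping heat shock elements (chr1:55088059-55088076) in capitals. Another Hspd1 transcript starts beyond that stretch, which therefore lies inside the annotated bounds of Hspd1. The other lines show 30 bases with the matched heat shock element (Dnajb6, Hsph1) or FOXO motif (Dnajc6, Dnajb12) in capitals, 5′ to 3′ on the strand named.
Stretch between a first exon of Hspd1 and that of Hspe1, chr1:55088025-55088131, plus strand: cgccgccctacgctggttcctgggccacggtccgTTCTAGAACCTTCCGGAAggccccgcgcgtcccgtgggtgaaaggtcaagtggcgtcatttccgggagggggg
Dnajb6, chr5:29735843-29735872, plus strand: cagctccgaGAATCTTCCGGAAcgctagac
Hsph1, chr5:149636280-149636309, minus strand: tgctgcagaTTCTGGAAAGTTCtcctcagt
Dnajc6, chr4:101507930-101507959, plus strand: ttttggaagtcgTGTTTACgtctgccttca
Dnajb12, chr10:59879351-59879380, plus strand: gtctgacaatcgGTAAACAtctgtacgatt

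Foxo1, the targeted gene, had log2 levels of 8.18, 8.27 and 7.99 in the 4-OHT libraries at 24 h, against 9.88, 9.84 and 9.80 in the EtOH libraries. At 48 h its levels were 8.16, 8.02 and 8.12 with 4-OHT and 10.02, 10.11 and 10.07 with EtOH. In the deletion arm the difference was -1.69 ± 0.07 at 24 h and -1.97 ± 0.06 at 48 h (± SE, n = 3 each, adjusted p in limma = 4.09e-06 and 1.01e-07), and was -0.18 ± 0.12 and -0.29 ± 0.11 with the compound (adjusted p = 1 and 0.196). All values in the text are the authors' normalised log2 values, on which a difference of 1 would be a doubling only if they are plain log2 values. The transformation is not named, and the log2 fold changes in the authors' deposited table are larger in size for Hspd1 and Hspa9, as given with these genes. The same held for other members with 4-OHT at 48 h, among them Dnajb4 (-0.91 in that table), Dnajc6 (0.86) and Hspa1b (1.09). Differences are therefore not read as exact folds. The levels are not divided by gene length, so levels are compared between libraries and never between genes, and read counts were not used here, so the depth is unknown. Library medians over the tested genes lay between 9.16 and 9.23. All 10 B-lineage markers examined were above the level threshold, as the label of the cells requires. In principal components of all tested genes, AS1842856 replicate 3 at 24 h and DMSO replicate 1 at 48 h stood apart from the other libraries of their groups, and counts are also given without them where that changes a count.

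With 4-OHT, the mitochondrial folding machinery and several cytosolic chaperones were lower, and a smaller set of J-domain and HSP70 genes was higher. At 24 h, 15 members were lower (30.6%) and 6 higher (12.2%), against 13.7% and 15.7% of all tested genes by the same limma call, an adjusted p under 0.05. At 48 h, 17 were lower (34.7%) and 10 higher (20.4%), against 25.8% and 25% of all tested genes. The share of members lower was thus above that of all genes at both times, and the share higher was below it. At 24 h this depends on the fit: with all 8 groups in 1 fit 4 members were lower (8.16%) and 2 higher (4.08%), against 8.04% and 11.3% of all genes. Well expressed genes were lower more often in general: among genes at or above the median level, 15 of 25 members (60%) were lower at 48 h against 35.5% of all such genes, and 12 of 25 (48%) at 24 h against 19.5%. Higher members of that kind numbered 4 of 25 (16%) at 48 h, against 24.5%, and 1 of 25 (4%) at 24 h, against 15.9%. Over all 49 members the median difference was -0.04 at 24 h and -0.01 at 48 h, beside -0.002 and 0.005 over all tested genes, so the members were split in direction and not shifted as a whole. By the adjusted p of the authors' deposited table, 7 members were lower and 2 higher at 24 h (against 9.43% and 12.2% of all genes), and 17 lower and 8 higher at 48 h (against 22.2% and 20.6%). At 24 h leaving out EtOH replicate 1 or 4-OHT replicate 2 gave 9 lower and 3 higher members. Calls over all 11470 genes fell there too, from 1577 lower to 1120 or 1118 and from 1804 higher to 1384 or 1374. At 48 h leaving out 4-OHT replicate 3 or EtOH replicate 3 gave 6 higher members. Over all genes 2546 or 2569 were then higher, down from 2862.

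**Figure D1:**
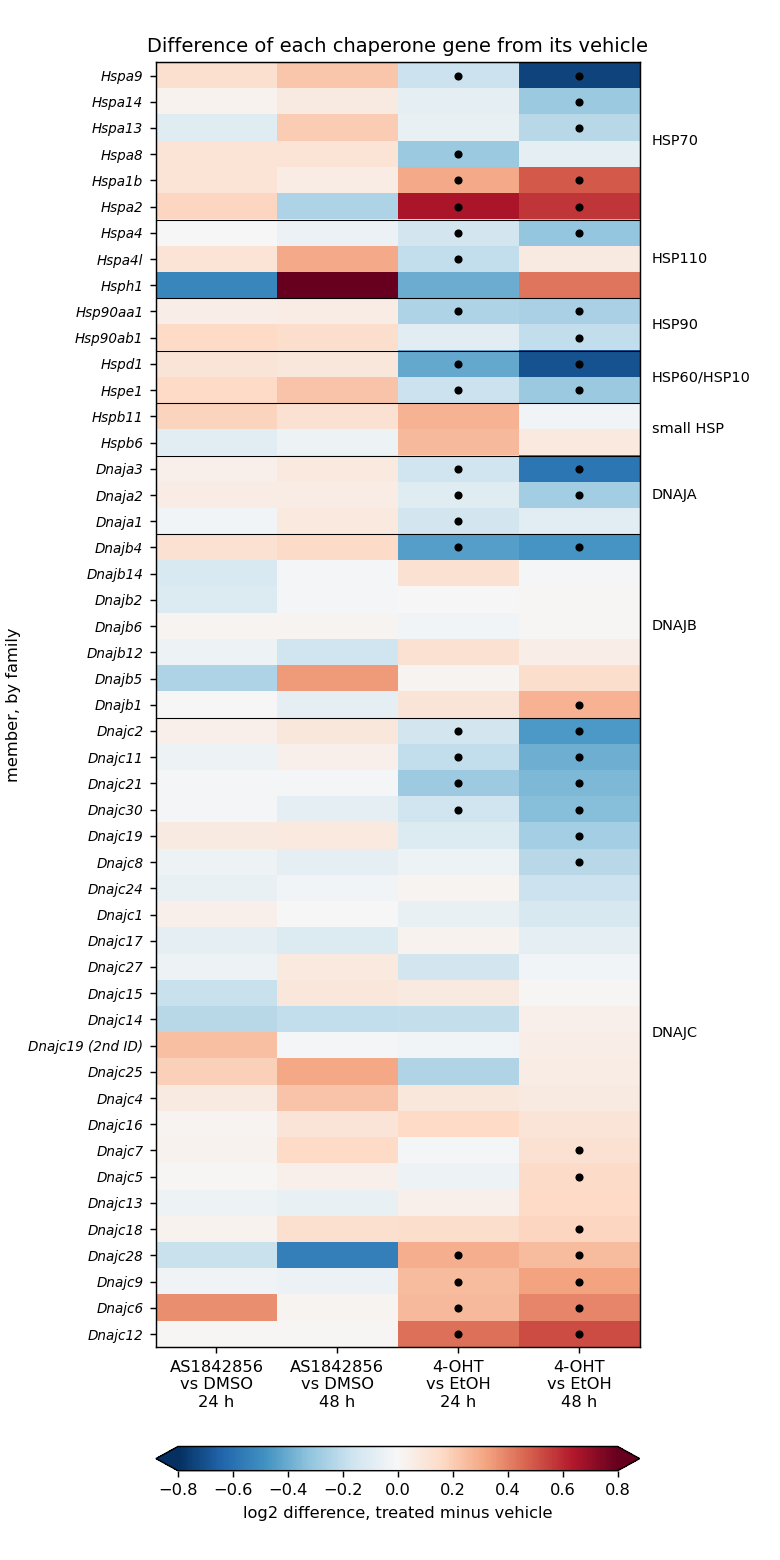
Colour shows the log2 difference of each of the 49 members (down the page, by family) in the 4 comparisons of a treatment with its vehicle, and a black dot marks a limma adjusted p under 0.05. The 21 and 27 dots of the 4-OHT columns at 24 and 48 h face none in the AS1842856 columns; the colour scale ends at 0.8 either way and Hsph1 with AS1842856 at 48 h, at 0.97, lies beyond it.

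The calls at the 2 times overlapped. The 12 members lower with 4-OHT at both 24 and 48 h were Dnaja2, Dnaja3, Dnajb4, Dnajc2, Dnajc11, Dnajc21, Dnajc30, Hsp90aa1, Hspa4, Hspa9, Hspd1 and Hspe1. Dnaja1, Hspa4l and Hspa8 passed as lower at 24 h alone, and Dnajc8, Dnajc19, Hsp90ab1, Hspa13 and Hspa14 at 48 h alone. All 6 members higher at 24 h, Dnajc6, Dnajc9, Dnajc12, Dnajc28, Hspa1b and Hspa2, were higher at 48 h too, joined there by Dnajb1, Dnajc5, Dnajc7 and Dnajc18. Of the 21 calls at 24 h, 10 passed in each of 6 fits that left out 1 library, and of the 27 calls at 48 h, 22 did. The 11 calls that did not at 24 h were Dnaja2, Dnajc2, Dnajc6, Dnajc12, Dnajc28, Dnajc30, Hspa1b, Hspa2, Hspa4, Hspa4l and Hspe1, and the 5 at 48 h were Dnajc5, Dnajc7, Dnajc18, Dnajc28 and Hspa1b. By the authors' deposited adjusted p, Dnaja1, Dnaja2, Dnajc2, Dnajc11, Dnajc30, Hspa4, Hspa4l, Hspa9 and Hspe1 did not pass as lower at 24 h. By that measure Dnajc6, Dnajc12, Dnajc28 and Hspa2 did not pass as higher at 24 h, nor Dnajc28 and Hspa2 at 48 h.

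The mitochondrial members had the lowest median difference of any place. Of these 10 genes, 6 were lower and 1 higher with 4-OHT at 24 h (median difference -0.16), and 7 were lower and 1 higher at 48 h (median -0.32). The background was 13.7% lower and 15.7% higher of all genes at 24 h, and 25.8% lower and 25% higher at 48 h. Of the 21 cytosolic members, 8 were lower (38.1%) and 3 higher (14.3%) at 24 h (median -0.07), so their share lower was above that background too. At 48 h, 7 of them were lower (33.3%) and 5 higher (23.8%), shares near the background of that time (median 0.01). Of the 4 nuclear members, 2 were lower and 1 higher at 48 h (50% and 25%, median -0.15). Of the 8 ER membrane members, 1 was lower and 1 higher at 48 h (12.5% each), and of the 4 vesicle and endosome members, 2 were higher and none lower. These counts by place are a description and were not tested against each other.

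**Figure D2:**
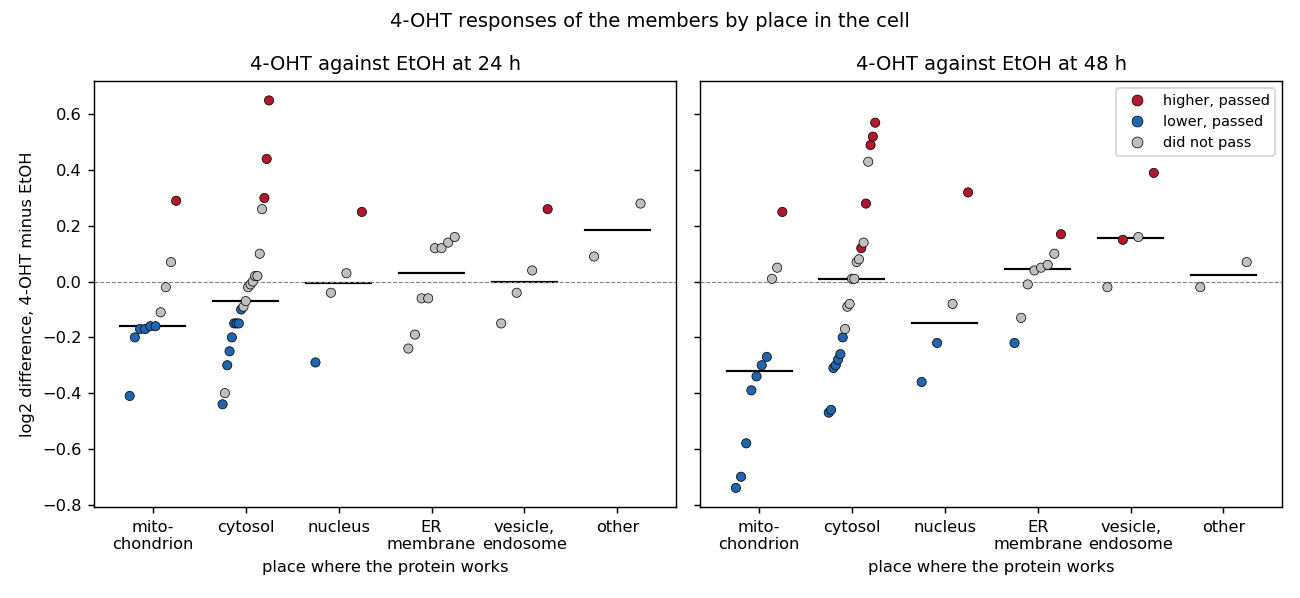
Each point is a member, placed by where its protein works, with its log2 difference between 4-OHT and EtOH at 24 h (left) and 48 h (right); bars are medians, blue and red mark members that passed as lower and higher. The mitochondrial genes reach -0.74 at 48 h, and their median moves to -0.32 there against -0.16 at 24 h.

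Hspd1 encodes HSP60, the mitochondrial folding chamber (ENSMUSG00000025980, GRCm38 chromosome 1, 55077835 to 55088243, minus strand). Its log2 levels at 48 h were 13.43, 13.43 and 13.33 with 4-OHT, against 14.12, 14.06 and 14.10 with EtOH. At 24 h they were 13.85, 13.73 and 13.82 with 4-OHT, against 14.22, 14.17 and 14.23 with EtOH. The groups did not overlap at either time, and the 4-OHT libraries at 48 h were the lowest of all 24. Hspd1 fell by 0.41 ± 0.04 at 24 h and 0.70 ± 0.04 at 48 h (adjusted p in limma = 0.000161 and 1.49e-06), and at both times had the smallest adjusted p of the 49 members. The authors' deposited table gives larger log2 fold changes for it, -0.57 at 24 h and -1.02 at 48 h. Hspe1, which encodes the HSP10 lid of that chamber and is transcribed from the other side of the printed stretch (chromosome 1, 55088132 to 55091307, plus strand), had levels of 12.13, 12.15 and 12.07 with 4-OHT at 48 h, against 12.40, 12.38 and 12.47 with EtOH. It fell by 0.17 ± 0.05 at 24 h and 0.30 ± 0.04 at 48 h (adjusted p in limma = 0.0361 and 0.000145), without overlap, though at 24 h the call was lost in 4 of the 6 fits without 1 library. Exons of Hspd1 and Hspe1 overlap on opposite strands, and no source used here says whether counting used strand, so the reads of the overlap cannot be told apart.

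Hspa9, the mitochondrial HSP70 mortalin that pulls in imported proteins (ENSMUSG00000024359, chromosome 18, 34937414 to 34954357, minus strand), had levels of 13.45, 13.43 and 13.35 with 4-OHT at 48 h, against 14.09, 14.15 and 14.22 with EtOH. At 24 h the levels were 13.72, 13.65 and 13.70 with 4-OHT, against 13.87, 13.83 and 13.87 with EtOH. The gap at 48 h was wider on both sides, since the 4-OHT libraries were lower than at 24 h and the EtOH libraries were higher. The difference was -0.17 ± 0.03 at 24 h and -0.74 ± 0.04 at 48 h (limma adjusted p = 0.00546 and 2.19e-06), the largest fall of any member. In the authors' deposited table its log2 fold change was -1.09 at 48 h. At 48 h the EtOH libraries of Hspa9 also lay above all 6 libraries of the compound arm, which spanned 13.76 to 13.93 with AS1842856 and 13.42 to 13.80 with DMSO.

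Dnaja3, the J-domain partner of mortalin (chromosome 16, 4639989 to 4707695, plus strand), showed the same arrangement. Its levels at 48 h were 10.48, 10.39 and 10.39 with 4-OHT, against 10.98, 10.99 and 11.03 with EtOH, and it fell by 0.16 ± 0.03 at 24 h and 0.58 ± 0.04 at 48 h (adjusted p in limma = 0.0108 and 5.28e-06). The groups stood apart, and here too the EtOH libraries at 48 h lay above the compound arm, at 10.40 to 10.60 with AS1842856 and 10.25 to 10.51 with DMSO. Exons of Dnaja3 overlap those of Vasn and Coro7. Among the other mitochondrial J-domain members, Dnajc11, a protein of the cristae-organising complex, fell by 0.39 ± 0.03 at 48 h (adjusted p = 2.38e-05). Dnajc30 fell by 0.34 ± 0.06 and Dnajc19, of the import motor, by 0.27 ± 0.05 (adjusted p = 0.00184 and 0.00109). Dnajc28 was the 1 mitochondrial member that was higher, by 0.25 ± 0.08 (adjusted p = 0.0284), a call lost without EtOH replicate 1, EtOH replicate 2 or 4-OHT replicate 3. Dnajc15 and the second Dnajc19 identifier did not pass at either time.

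**Figure D3:**
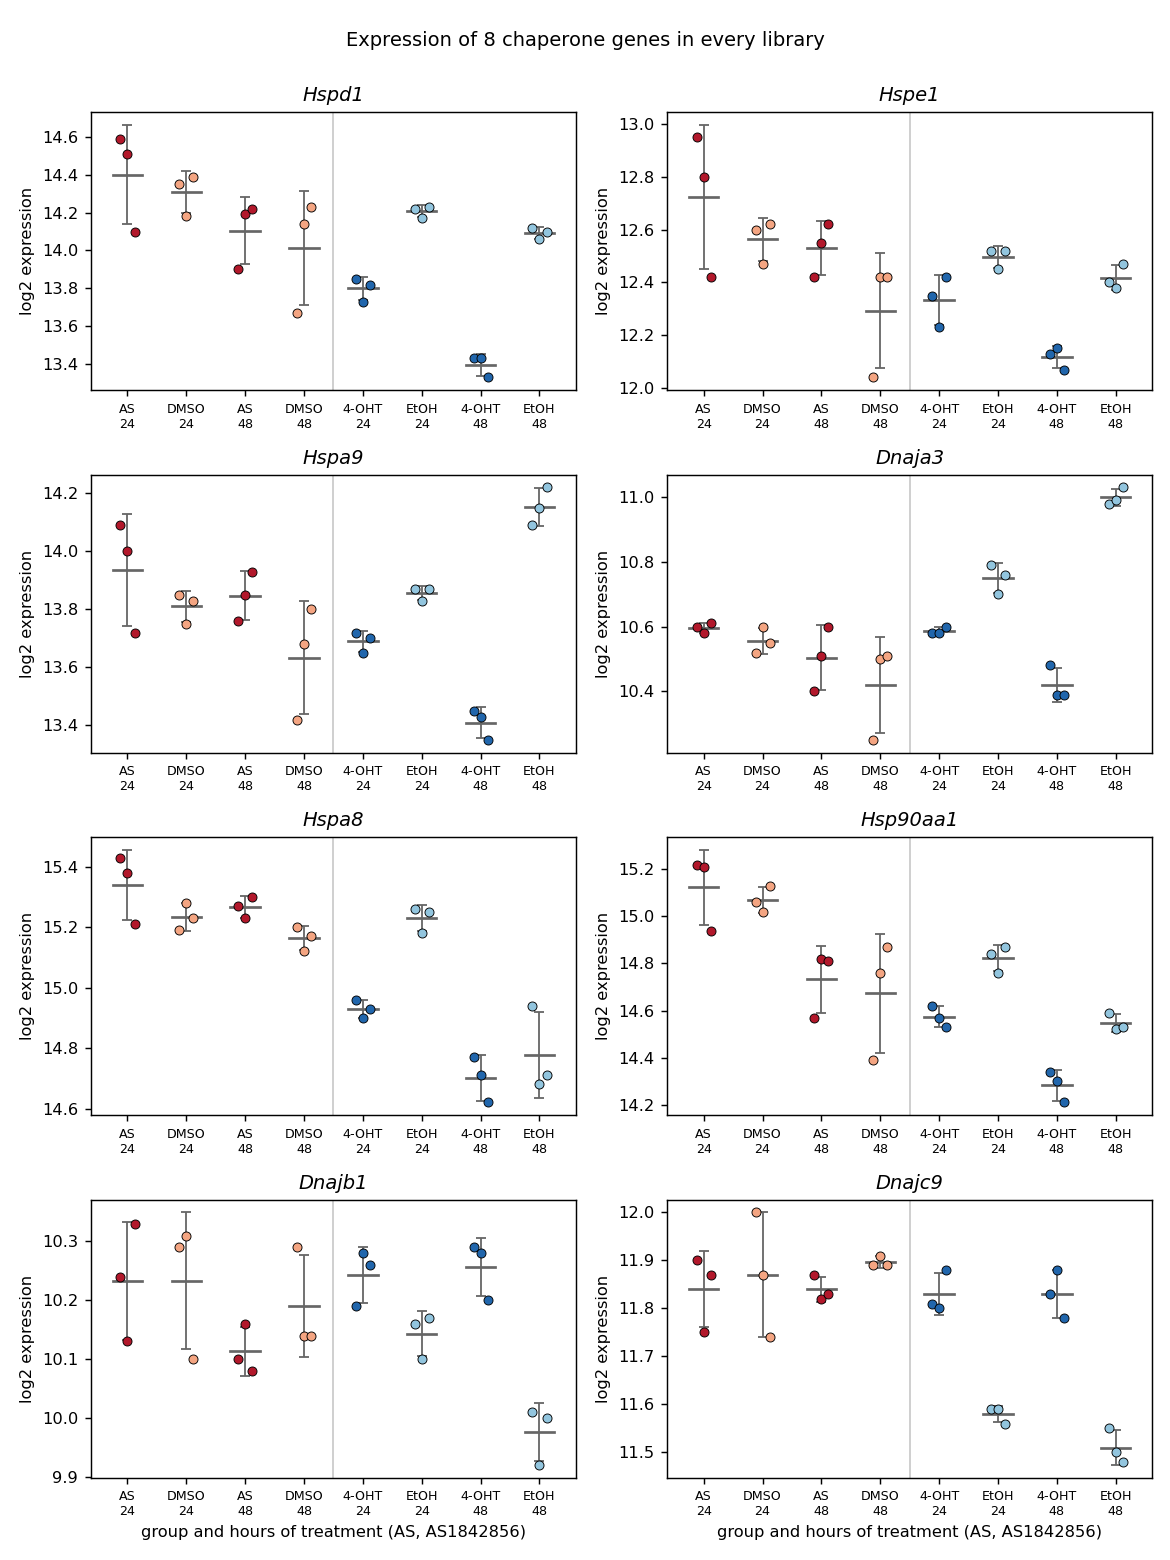
Each panel gives the log2 expression of 1 gene in all 24 libraries (points) by group, treated group left of its vehicle, with the mean and SD of 3 libraries; the y axes differ between panels and do not start at 0. For Hspd1, Hspe1, Hspa9 and Dnaja3 the 4-OHT libraries at 48 h lie under their EtOH libraries, while AS1842856 and DMSO libraries overlap.

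Hspa8 encodes HSC70, the constitutive cytosolic HSP70 (ENSMUSG00000015656, chromosome 9, 40800984 to 40810087, plus strand; 3 snoRNA genes lie in its exons' span on the same strand). At 24 h its levels were 14.96, 14.90 and 14.93 with 4-OHT, against 15.26, 15.18 and 15.25 with EtOH, a fall of 0.30 ± 0.04 without overlap (limma adjusted p = 0.000636). At 48 h the levels were 14.77, 14.71 and 14.62 with 4-OHT, against 14.94, 14.68 and 14.71 with EtOH, and the groups overlapped. The EtOH libraries had themselves moved, being 0.45 ± 0.06 lower at 48 h than at 24 h (adjusted p = 0.00278). Whether the 4-OHT response of Hspa8 differed between the times did not reach the threshold, with a difference of 0.22 ± 0.08 (adjusted p = 0.093).

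Both HSP90 genes were lower with 4-OHT. Hsp90aa1, the stress-inducible HSP90 alpha (chromosome 12, 110690605 to 110702728, minus strand), had 14.34, 14.30 and 14.21 with 4-OHT at 48 h, against 14.59, 14.52 and 14.53 with EtOH. It fell by 0.25 ± 0.04 at 24 h and 0.26 ± 0.04 at 48 h (adjusted p in limma = 0.00249 and 0.000595), with no overlap at either time. Hsp90ab1, the constitutive HSP90 beta (chromosome 17, 45567775 to 45573271, minus strand), had 16.01, 15.98 and 15.96 with 4-OHT at 48 h, against 16.24, 16.15 and 16.15 with EtOH. It fell by 0.20 ± 0.04 there (adjusted p = 0.00268), and its difference of -0.09 at 24 h did not pass.

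Among the nucleotide exchange factors of the HSP110 family, Hspa4 (APG-2) fell by 0.15 ± 0.04 at 24 h and 0.31 ± 0.03 at 48 h (adjusted p in limma = 0.0244 and 2.91e-05). Its levels at 48 h were 12.54, 12.58 and 12.59 with 4-OHT, against 12.87, 12.88 and 12.90 with EtOH, so the groups stood well apart. Hspa4l, its close relative, fell by 0.20 ± 0.06 at 24 h (adjusted p = 0.0445), a call that passed in 1 of 6 fits without 1 library, and was 0.07 higher at 48 h without passing. Hsph1, the third member of that family and a gene with a heat shock element, cannot be read for a response. In 7 libraries spread over 6 groups its level lay between 4.98 and 5.01, while in the other 17 it lay between 5.54 and 7.19. Its SD within groups ran from 0.34 to 1.24, and the median of these SDs was the largest of any member. The 4-OHT libraries at 48 h, for example, had 4.98, 6.43 and 6.07, against 5.64, 5.00 and 5.54 with EtOH. The reason for the repeated value near 5.00 was not tested.

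The J-domain members Dnajc2 and Dnajc21 fell with 4-OHT. Dnajc2, a ribosome-associated chaperone (zuotin in yeast), had levels of 11.59, 11.57 and 11.48 with 4-OHT at 48 h, against 11.99, 11.99 and 12.02 with EtOH. The groups did not overlap, and it fell by 0.15 ± 0.03 at 24 h and 0.46 ± 0.04 at 48 h (adjusted p in limma = 0.0129 and 1.38e-05). Dnajc21, which acts in ribosome assembly, fell by 0.29 ± 0.05 and 0.36 ± 0.04 (adjusted p = 0.00338 and 0.000183). Hspa14, the HSP70 partner of Dnajc2 on the ribosome, fell by 0.30 ± 0.04 at 48 h (adjusted p = 0.000162), but its identifier, ENSMUSG00000051396, is named Gm45902 in GENCODE M21, where its exons overlap another gene on the same strand that carries the name Hspa14. Which of the 2 genes the value called Hspa14 belongs to is therefore uncertain. Of the cytosolic J-domain proteins that serve HSC70, Dnaja2 fell by 0.28 ± 0.04 and Dnajb4 by 0.47 ± 0.09 at 48 h (adjusted p = 0.000231 and 0.00184). Dnaja1 fell by 0.15 ± 0.03 at 24 h (adjusted p = 0.00949), and its difference of -0.09 at 48 h did not pass. Dnajb6, a member with a heat shock element, did not pass at either time. Its mean level was 11.34 with 4-OHT and 11.36 with EtOH at 24 h, and 11.35 and 11.34 at 48 h.

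Fewer members were higher with 4-OHT. Dnajb1 (HSP40), the J-domain protein induced by heat together with HSP70 (chromosome 8, 83608193 to 83612653, plus strand), had 10.29, 10.28 and 10.20 with 4-OHT at 48 h, against 9.92 to 10.01 with EtOH. The groups did not overlap and it rose by 0.28 ± 0.04 (limma adjusted p = 0.000771), while its difference of 0.10 at 24 h did not pass. The EtOH libraries of Dnajb1 were 0.17 ± 0.04 lower at 48 h than at 24 h (adjusted p = 0.022), a call lost without EtOH replicate 1 or 3 of 24 h or replicate 2 of 48 h. Hspa1b, an inducible HSP70, rose by 0.30 ± 0.07 at 24 h and 0.49 ± 0.14 at 48 h (adjusted p = 0.0176 and 0.0168). Its levels at 48 h were 5.59, 5.94 and 5.82 with 4-OHT, against 5.55, 5.29 and 5.02 with EtOH, so the lowest 4-OHT library lay close to the highest EtOH library. Without EtOH replicate 3, 4-OHT replicate 2 or 4-OHT replicate 3 the 48 h call was lost, and the highest adjusted p was 0.0588. Hspa1a, a near-identical copy under the level threshold, lay between 1.87 and 2.13 in every library, and since counting may split reads between the copies, Hspa1b is uncertain.

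Dnajc9, a nuclear J-domain protein that also chaperones histones, had 11.83, 11.88 and 11.78 with 4-OHT at 48 h, against 11.55, 11.50 and 11.48 with EtOH. At 24 h it had 11.81, 11.80 and 11.88 with 4-OHT, against 11.59, 11.59 and 11.56 with EtOH. It rose by 0.25 ± 0.03 and 0.32 ± 0.04 (limma adjusted p = 0.000839 and 0.00012), with a clear gap at both times. Hspa2, an HSP70 known from the testis, rose by 0.65 ± 0.20 and 0.57 ± 0.13 (adjusted p = 0.0444 and 0.00611). At 24 h 1 EtOH library of Hspa2 stood at 6.46 beside 5.55 and 5.82, close to the 4-OHT libraries at 6.58, 6.52 and 6.69, and of the 6 fits without 1 library, the 1 without that library kept the 24 h call. Dnajc12, a cytosolic J-domain protein that binds aromatic amino acid hydroxylases, rose by 0.44 ± 0.11 and 0.52 ± 0.12 (adjusted p = 0.0225 and 0.00685). Dnajc6, 1 of the 2 members with a FOXO motif, rose by 0.26 ± 0.06 and 0.39 ± 0.09 (adjusted p = 0.0163 and 0.00676), and Dnajb12, the other, did not pass at either time.

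**Figure D4:**
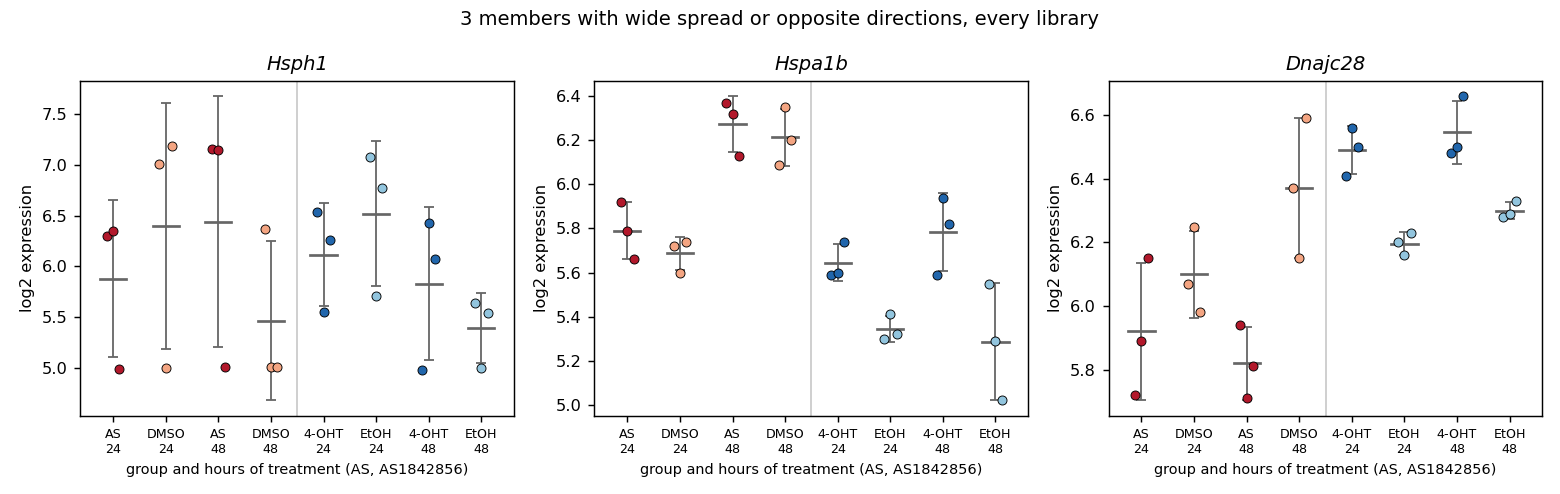
Points give the log2 expression of Hsph1, Hspa1b and Dnajc28 in all 24 libraries by group, treated group left of its vehicle, with the mean and SD of 3 libraries. Hsph1 shows the 7 libraries at about 5.00, Hspa1b lies higher in the compound arm at 48 h than elsewhere, and Dnajc28 is low with AS1842856 at 48 h, from 5.71 to 5.94.

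With AS1842856, no member passed the test at either time. At 24 h the count was 0 higher and 0 lower, against 0.00872% and 0% of all tested genes, so the comparison held almost no calls at all; 2 members had an unadjusted p under 0.05, and the adjusted p of the authors' deposited table called 0 members in either direction, against 0.0873% higher and 0.0436% lower of all genes. At 48 h it was again 0 higher and 0 lower, against 1.88% and 2.97% of all genes, with 7 members at an unadjusted p under 0.05. The median difference of the members was 0.02 at 24 h and 0.06 at 48 h, beside 0.005 over all genes at both times. At 48 h replicates of equal number deviated together between AS1842856 and DMSO, and in a fit blocked by replicate number 4 members were higher (8.16%) and 1 lower (2.04%), against 6.66% and 7.54% of all genes. The authors' deposited adjusted p also gave 4 higher and 1 lower, against 5.61% and 7.49%. These shares are near or under those of all genes.

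The single lower gene in both was Dnajc28, a mitochondrial J-domain protein. Its levels at 48 h were 5.94, 5.71 and 5.81 with AS1842856, against 6.37, 6.15 and 6.59 with DMSO, without overlap. The difference was -0.55 ± 0.13 (limma adjusted p = 0.053), or adjusted p = 0.0178 with the replicate block, and -1.17 as a log2 fold change in the authors' deposited table. Dnajc7, which links HSP70 and HSP90, and Hspa13, an HSP70 relative of microsomes, were higher with the block and in the authors' deposited table. Hspa13 had 9.95, 9.89 and 10.03 with AS1842856, against 9.75, 9.74 and 9.77 with DMSO, a difference of 0.20 ± 0.05 (adjusted p = 0.0856, and 0.0341 with the block). Dnajc7 differed by 0.16 ± 0.05 (adjusted p = 0.114, and 0.0302 with the block). Hspa9 and Hspe1 passed with the block alone, at 0.22 and 0.23 (adjusted p = 0.0299 for each), and Hspa4l and Dnajc25 in the authors' deposited table alone, at log2 fold changes of 0.51 and 0.53.

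The libraries that stood apart shaped the spread of the compound arm. Hspd1 had 14.59, 14.51 and 14.10 with AS1842856 at 24 h, against 14.35, 14.18 and 14.39 with DMSO, and the low library was AS1842856 replicate 3. At 48 h it had 13.90, 14.19 and 14.22 with AS1842856, against 13.67, 14.14 and 14.23 with DMSO, and the lowest was DMSO replicate 1. Both groups overlapped at each time, and neither difference passed, at 0.10 ± 0.13 and 0.09 ± 0.15 (limma adjusted p = 1 and 0.797). HSC70 (Hspa8) differed by 0.11 ± 0.09 and 0.11 ± 0.06, Hsp90aa1 by 0.05 ± 0.10 and 0.06 ± 0.13, and Hsp90ab1 by 0.16 ± 0.14 and 0.14 ± 0.07, none of which passed. Leaving out any 1 library of the compound arm still gave no call among the members at either time.

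The compound and deletion responses at 48 h were then compared in 1 limma model of the 4 groups, as AS1842856 minus DMSO less 4-OHT minus EtOH. Here 14 members were higher (28.6%) and 5 lower (10.2%), against 18% and 19.1% of all tested genes. Among genes at or above the median level it was 13 of 25 members higher (52%) and 3 lower (12%), against 24.1% and 20.7%. The median over the members was 0.14, beside -0.005 over all genes. The contrast holds the 4-OHT differences with the opposite sign, so genes that 4-OHT lowered come out higher in it unless the compound lowered them too, and the lists are not independent. All 14 higher members were among the 17 that 4-OHT lowered at 48 h. Of the 5 lower ones, Dnajb1, Dnajc9, Dnajc28 and Hspa2 were among those that 4-OHT raised, and the fifth was Dnajb12. Of the 10 mitochondrial members, 6 were higher and 1, Dnajc28, lower.

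The largest of these differences was that of Hspa9, 0.96 ± 0.12 (limma adjusted p = 6.49e-05), made of 0.22 with the compound and -0.74 with 4-OHT. Dnaja3 differed by 0.66 ± 0.10 and Dnajc2 by 0.55 ± 0.09 (adjusted p = 0.000309 and 0.000531). Hspd1 stood at 0.79 ± 0.17 and Hspe1 at 0.53 ± 0.12 (adjusted p = 0.00365 and 0.0052). The model shares 1 spread per gene over its groups, although the spread of the arms was unequal. For Hspd1 at 48 h the SD was 0.30 with DMSO and 0.18 with AS1842856, against 0.03 with EtOH and 0.06 with 4-OHT. The SEs and adjusted p of this contrast rest on that shared spread. Hsp90ab1 passed at 0.34 ± 0.07 (adjusted p = 0.00282), whereas Hsp90aa1, at 0.32 ± 0.15, did not (adjusted p = 0.11). In the other direction Dnajc9 differed by -0.38 ± 0.05, Dnajb1 by -0.36 ± 0.07 and Dnajc28 by -0.80 ± 0.15 (adjusted p = 0.000193, 0.0022 and 0.00155). Of the 19 calls, 17 passed in each of 12 fits without 1 library, the exceptions being Dnajb12 and Hspa4.

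**Figure D5:**
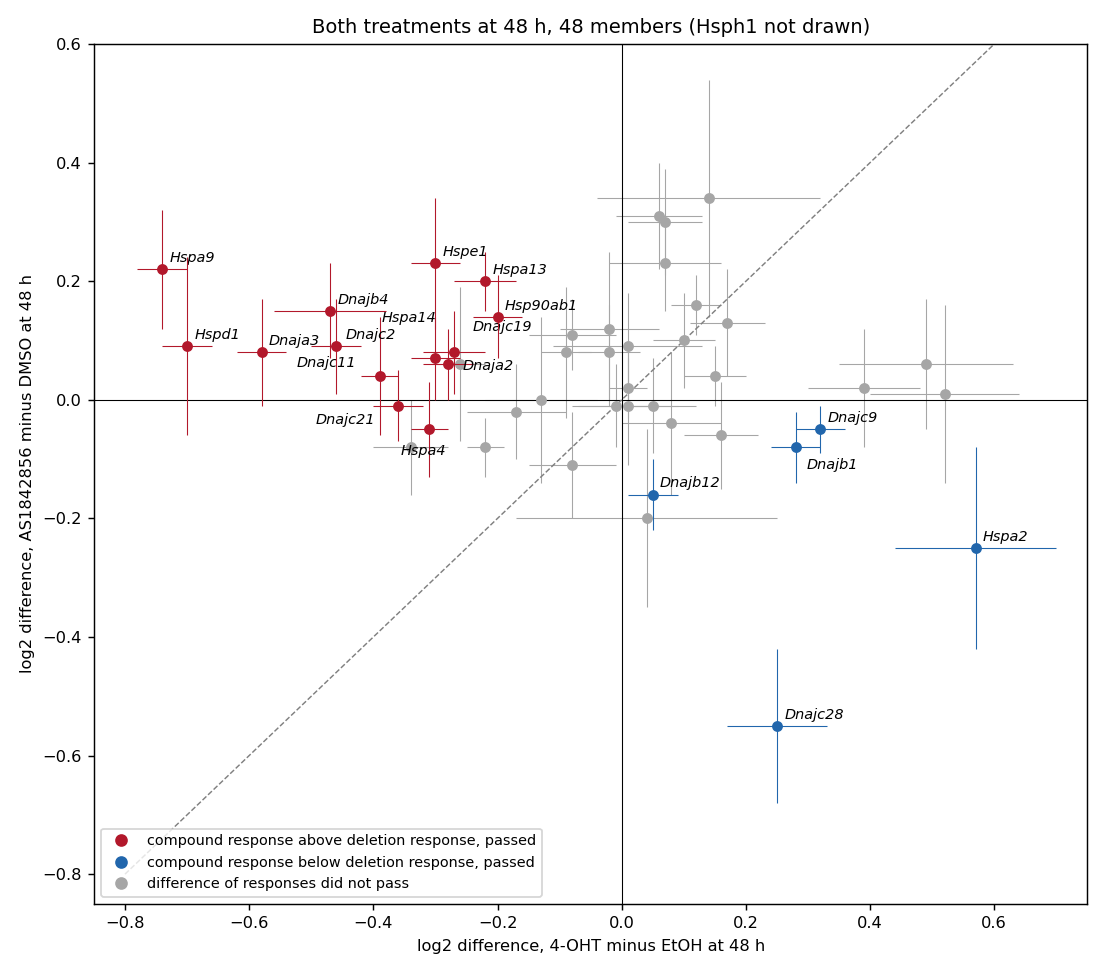
Each point is 1 of 48 members, with its log2 difference between 4-OHT and EtOH (x axis) and between AS1842856 and DMSO (y axis) at 48 h; bars are SE, the dashed line marks equal responses, and Hsph1 is left out for its spread. The 14 red points, whose compound response passed as above the deletion response, all lie left of 0 on the x axis, and 4 of the 5 blue points to its right at 0.25 or more; the tested difference is y minus x, so its calls are tied to the x values.

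At 24 h the same contrast called 3 members higher and 0 lower (6.12% and 0%), against 1.95% and 4.15% of all genes. They were Hspa8 at 0.41 ± 0.09, Dnajb4 at 0.55 ± 0.13 and Dnajc21 at 0.28 ± 0.07 (limma adjusted p = 0.0194, 0.0225 and 0.0358). None of the 3 passed in all 12 fits without 1 library. The result turned on AS1842856 replicate 3, without which 14 members were higher and 3 lower. Calls over all 11470 genes rose there too, from 224 higher and 476 lower to 914 and 1123. The count also turned on EtOH replicate 3, without which 0 members were higher, beside 117 of all genes. Without EtOH replicate 1, 4-OHT replicate 2 or AS1842856 replicate 2, 1 member was higher, beside 111, 113 and 152 of all genes. Without DMSO replicate 3, 1 member was lower, beside 481 of all genes.

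The deletion response was compared between the times in 1 model of 4 groups. At 48 h minus 24 h, 9 members were lower (18.4%) and 1 higher (2.04%), against 9.03% and 6.57% of all genes, and all 9 were among the 25 members at or above the median level (36%, against 13.9% of such genes), whereas none of the 25 was higher, against 7.72%. Hspa9 differed by -0.57 ± 0.05, Dnaja3 by -0.42 ± 0.05 and Dnajc2 by -0.31 ± 0.05 (limma adjusted p = 5.50e-05, 0.000216 and 0.00149). The higher member was Hspa4l, at 0.27 ± 0.08 (limma adjusted p = 0.0329), whose call was lost in 10 of the 12 fits without 1 library. Leaving out EtOH replicate 1 of 48 h gave 4 higher members, beside 731 of all genes. With all 8 groups in 1 fit, 2 members were lower (4.08%) and 0 higher, against 2.36% and 1.59% of all genes. Since the EtOH libraries moved as well, this contrast holds changes of the vehicle. The compound response did not differ between the times for any member, with 0 higher and 0 lower against 0% and 0.00872% of all genes, and 1 member, Dnajc5, at an unadjusted p under 0.05.

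In EtOH alone, 48 h against 24 h, 6 members were higher (12.2%) and 8 lower (16.3%), against 13.4% and 12% of all genes, shares close to the background. Hspa9 and Dnaja3 rose by 0.30 ± 0.04 and 0.25 ± 0.03, while Hspa8, Dnaja1 and Hsp90aa1 fell by 0.45 ± 0.06, 0.31 ± 0.04 and 0.28 ± 0.04 (limma adjusted p from 0.00173 to 0.00278). Hspb11, named as a small heat shock protein but a part of intraflagellar transport, rose by 0.47 ± 0.09 (adjusted p = 0.00978). Hsph1 passed at -1.13 ± 0.32 (adjusted p = 0.0367), with 1 of its 6 libraries at the repeated value near 5.00, and 5 of 6 fits without 1 library lost it. Leaving out EtOH replicate 1 of 24 h gave 3 higher and 5 lower, replicate 3 of 24 h 5 lower, replicate 2 of 48 h 4 lower and replicate 3 of 48 h 3 higher. Calls over all genes fell there too, from 1534 higher and 1374 lower in the main fit. In the same order they were 937 higher and 814 lower, 935 lower, 826 lower and 914 higher. In DMSO no member passed over the same interval, with 0 higher and 0 lower against 0.00872% and 0% of all genes, and 5 members had an unadjusted p under 0.05. Hspa1b had the smallest adjusted p there, with 6.09, 6.35 and 6.20 in DMSO at 48 h, against 5.72, 5.60 and 5.74 at 24 h, a difference of 0.53 ± 0.11 (adjusted p = 0.251) without overlap. Whether the vehicles differed in their course was not tested.

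Other chaperone genes, listed by function, were lower with 4-OHT at 48 h as well. Of 31 co-chaperones of HSP70 and HSP90, 17 were lower and 4 higher (median -0.19), among them Fkbp4 at -0.62 ± 0.04, an HSP90-bound prolyl isomerase, and Ptges3 (p23) at -0.45 ± 0.03 (limma adjusted p = 4.17e-06 and 5.70e-06). Of 17 subunits of the cytosolic chaperonin and prefoldin, which fold actin and tubulin, 14 were lower and 1 higher (median -0.34), with Cct6a at -0.59 ± 0.04 and Cct8 at -0.49 ± 0.03 (adjusted p = 7.18e-06 and 7.10e-06). Of 16 further mitochondrial chaperone and import genes, 13 were lower and 0 higher (median -0.23), with the receptor Tomm20 at -0.51 ± 0.04 and the channel subunit Timm23 at -0.50 ± 0.04 (adjusted p = 8.20e-06 and 1.82e-05). Of 18 ER chaperones and translocon genes, 10 were lower and 1 higher (median -0.15), with Hyou1, the HSP110 of the ER, at -0.50 ± 0.03 (adjusted p = 5.55e-06). These counts stand beside 25.8% of all genes lower and 25% higher, and 35.5% and 24.5% of genes at or above the median level. At 24 h the same lists had 11, 9, 5 and 7 genes lower and 3, 0, 1 and 0 higher, in that order. All genes had 13.7% lower and 15.7% higher there, and genes at or above the median level 19.5% and 15.9%.

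With AS1842856 at 48 h, the only call in those 4 lists was P4hb, the ER disulfide isomerase, at 0.41 ± 0.06 (limma adjusted p = 0.014). The compound minus deletion contrast at 48 h had 11, 10, 11 and 8 genes higher and 1, 0, 0 and 0 lower, in that order, beside 18% and 19.1% of all genes. Among genes at or above the median level those shares were 24.1% and 20.7%. Of the heat shock factors, Hsf1 was 0.16 ± 0.13 at 48 h with 4-OHT and did not pass, and Hsf2 fell by 0.26 ± 0.09 (adjusted p = 0.041). Bag3, an HSP70 co-chaperone induced by HSF1, was listed at 0 in every library. Of 12 immediate-early and handling genes tested, 5 were higher and 3 lower with 4-OHT at 48 h, against 25% and 25.8% of all genes. With AS1842856 at 48 h, 3 were higher and 0 lower, against 1.88% and 2.97% of all genes. Among those 3 were Jun at 1.00 ± 0.08 and Atf3 at 1.16 ± 0.15 (limma adjusted p = 0.00221 and 0.0086). The summed log2 level of the 13 genes of that list ran from 89.9 to 91.8 with AS1842856 and from 86.2 to 86.8 with DMSO at 48 h, and from 84.6 to 86.7 with 4-OHT and 83.8 to 84.5 with EtOH at the same time. Their part in the chaperone values was not tested.

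Of the 10 B-lineage markers, 5 were lower and 0 higher with AS1842856 at 48 h, against 2.97% and 1.88% of all genes. With 4-OHT, 2 were higher and 5 lower at 24 h, against 15.7% and 13.7%. At 48 h 5 were higher and 3 lower with 4-OHT, against 25% and 25.8%. Markers of other cells also moved with 4-OHT. All 3 of 8 myeloid markers that were tested, Csf1r, Cx3cr1 and Lyz2, were higher at 24 and 48 h, and the summed log2 level of the 7 found ran from 15.5 to 16.1 with 4-OHT and from 12.5 to 13.0 with EtOH at 48 h, with Elane at 0. Pecam1, the 1 stromal or endothelial marker tested, was higher by 1.26 at 48 h, with Pdgfra and Kdr at 0. No T or NK cell marker and no erythroid marker reached the level threshold. Their part in the chaperone results was not tested, and fewer cells of a type and less RNA per cell cannot be told apart in these bulk libraries.

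Ranked by Pearson correlation over the 24 libraries, the genes most like the mean of 6 core members, Hspa8, Hsp90aa1, Hsp90ab1, Hsph1, Dnaja1 and Dnajb1, were Zzz3, Ncbp2, Srsf6, Nras and Rbm3, the last a cold-inducible RNA-binding protein. Their own 4-OHT differences were small. Ncbp2 and Srsf6 fell by 0.17 ± 0.04 and 0.11 ± 0.03 at 24 h (limma adjusted p = 0.0173 and 0.0216), and Nras fell by 0.13 ± 0.04 at 48 h (adjusted p = 0.0163). Since Hsph1 is among the 6 and the values were not scaled, its repeated value near 5.00 weighs heavily in that mean. The median of its SDs within groups was 0.76, against 0.04 to 0.06 for the other core members. How far the ranking follows Hsph1 alone was not tested.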

How the data were processed

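RNA was sequenced from 24 libraries in 8 groups of 3, with groups and replicate numbers from the sample labels and each column matched by name. The software listed, per the submitters' processing notes, is DESeq2 1.44.0, Salmon 1.1.1 and STAR 2.7.11b with build mm10. How reads were counted, and whether by strand, is not given in the sources used here. The authors deposited normalised log2 expression values per library by a transformation the file headers do not name, a log2 fold change with its error, a test statistic (a score, not used here), and p-values with adjusted p-values. Read counts were not used here, so depth and counting error are unknown.

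The 11470 genes whose mean value reached log2 of 11 were fitted with limma 3.58.1 in R 4.3.3 (trended empirical Bayes, the 2 or 4 groups of each comparison, no covariate). The values were already on a log2 scale, so no pseudocount was added. Benjamini-Hochberg adjustment ran over all 11470, and calls have an adjusted p under 0.05. Errors after ± are standard errors of the difference. The fit was tested on simulated data. With 4-OHT at 48 h, log2 differences of Hspd1, Hspa9 and other members such as Dnajb4, Dnajc6 and Hspa1b came out smaller in size than the log2 fold changes of the authors' deposited table. For Hsph1 with AS1842856 at 48 h the order was reversed, at 0.97 against 0.13 in that table. The cause was not tested.

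The members and lists were chosen with earlier results of these data known. Named members were 14 fixed by role, up to 5 in each direction with the smallest adjusted p in each treatment comparison, up to 3 in each contrast or vehicle comparison, those at the level threshold and up to 4 of each list; others are named where a count is spelled out. Roles and places are textbook knowledge. Positions are from GENCODE M21 (build GRCm38), which holds 48 of the 49 identifiers; exons of 18 members overlap another gene. Promoters are from RefSeq (GRCm38.p6).

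Whether equal replicate numbers pair libraries was checked from deviations around the group means. Between AS1842856 and DMSO at 48 h the correlations were 0.409, 0.255 and 0.147, so blocked values are given there. In the other comparisons at least 1 correlation was under 0.1, though AS1842856 and DMSO replicate 1 at 24 h had 0.459. Low correlations do not show that libraries of equal number were unpaired. No 2 libraries were copies: the smallest root mean square difference was 0.144. Alternatives were the replicate block, no filter, a stricter filter at the median level, equal library medians, log2(value + 10), no variance trend, all 8 groups in 1 fit, each library left out, and the authors' adjusted p. Plots used Python 3.11.15 with matplotlib 3.10.9.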

Additional observations from a re-analysis of the deposited data

Results flagged for a closer look

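For 10 members the 4-OHT response at 48 h differed from that at 24 h by a test of the difference itself (limma contrast in 1 model of the 4 groups of 3 libraries, adjusted p under 0.05). The response was lower at 48 h for the mitochondrial genes Hspa9 (-0.57), Dnaja3 (-0.42), Hspd1 (-0.29) and Dnajc11 (-0.19), for the ribosome-associated Dnajc2 (-0.31), for the identifier called Hspa14 (-0.23), which GENCODE M21 names Gm45902 and whose exons overlap Hspa14, and for Dnaja2 (-0.18), Dnajc8 (-0.18), a splicing-linked J-domain protein, and Hspa4 (-0.16). It was higher for Hspa4l (0.27). The EtOH libraries of Hspa9, Dnaja3 and Dnajc8 were themselves higher at 48 h than at 24 h, so for these genes the vehicle is part of the difference, although the vehicle call of Dnajc8 was lost in 5 of 6 fits without 1 library. Hspd1 averaged 13.40 at 48 h and 13.80 at 24 h with 4-OHT, against 14.09 and 14.21 with EtOH, so its vehicle moved the same way as 4-OHT and by less; that vehicle call was lost in 4 of 6 such fits. The calls of Dnajc8, Hspa4 and Hspa4l were lost in some fits without 1 library, and those of the other 7 were kept in all 12. With all 8 groups in 1 fit, however, 2 members were lower (4.08%) and 0 higher, so most of the 10 calls did not pass there. All genes had 2.36% lower and 1.59% higher in that fit.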

How the results depend on the processing

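The 49 member and comparison pairs recomputed were not the 49 members. They were calls that had passed in the main fit, picked by smallest adjusted p or by role. None of them changed direction under any alternative. Since they were picked from passing calls, their stability does not speak for the calls left out. Equal library medians and log2(value + 10) kept all 49 calls, the replicate block 48, no variance trend 46, no filter 45, all 8 groups in 1 fit 35, and the authors' adjusted p 20 of 30; the stricter filter kept the 37 it could test, as it drops members below the median level. With the replicate block, AS1842856 at 48 h had 4 members higher and 1 lower, as with all 8 groups in 1 fit and by the authors' adjusted p. The deletion response at 48 h minus 24 h had 3 higher with the block. Whether equal replicate numbers pair libraries is not said by the labels, and the correlations cannot decide it. The block ended 1 named call, Dnajc21 in the compound minus deletion contrast at 24 h (limma adjusted p = 0.0548). With all 8 groups in 1 fit, 4-OHT at 24 h had 2 higher and 4 lower, EtOH over time 4 lower, DMSO over time 1 higher and 2 lower, compound minus deletion at 24 h 1 lower, and deletion at 48 h minus 24 h 0 higher and 2 lower. The authors' adjusted p gave 2 higher and 7 lower for 4-OHT at 24 h. The stricter filter gave 1 higher for 4-OHT at 24 h, 5 higher at 48 h, 3 higher for EtOH over time, 3 lower for compound minus deletion at 48 h and 2 higher for deletion at 48 h minus 24 h. No filter gave 5 lower for EtOH over time and 3 lower for compound minus deletion at 48 h, and equal medians 4 higher for deletion at 48 h minus 24 h. The cause was not tested. Leaving out 1 library gave 3 to 5 higher and 9 to 14 lower for 4-OHT at 24 h, 6 to 10 and 17 to 18 at 48 h, 3 to 5 and 4 to 8 for EtOH over time, 0 to 14 and 0 to 3 for compound minus deletion at 24 h, 13 to 16 and 4 to 6 at 48 h, 0 to 4 and 7 to 9 for deletion at 48 h minus 24 h, and 0 elsewhere. Calls over all 11470 genes moved in the fits without 1 library as well. For 4-OHT at 24 h they ran from 1374 to 1668 higher and from 1118 to 1576 lower. For compound minus deletion at 24 h they ran from 111 to 914 higher and from 295 to 1123 lower. Genes near the level threshold are limited by unknown depth.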
